A study of Mus musculus with 24 samples.

Results

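The genes described here encode 8 adhesion molecules through which blood leukocytes attach to the vessel wall, and they were measured in the brains of mice with and without angiotensin II-induced hypertension. They were chosen by gene name as Vcam1, Icam1, Icam2, Selp, Sele, Itga4, Itgal and Itgb2, and each name matched a single row among the 54532 genes of the deposited table. Brain hemispheres of 24 male wild-type C57Bl6 mice aged 8 to 12 weeks were sequenced as poly(A) RNA, with 6 mice in each of 4 groups. Every mouse carried a subcutaneous osmotic minipump for 2 weeks, which delivered angiotensin II at 0.7 mg/kg/day or only 0.9% saline (vehicle). One injection into the tail vein held either saline or 1000000 human amnion epithelial cells, which are epithelial cells taken from the amnion of term placentae. The groups were vehicle, angiotensin II, vehicle + amnion epithelial cells and angiotensin II + amnion epithelial cells. No mouse was left without a pump and an injection, and the cells were of human origin in mice with an intact immune system.

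Leukocytes leave the blood in steps. The endothelial selectins P-selectin and E-selectin slow the rolling cell, chemokines then activate its integrins, and the activated integrins hold on to members of the immunoglobulin family on the endothelium. The main pairs are VCAM-1 with the α4 integrins, and ICAM-1 and ICAM-2 with the β2 integrins. In healthy brain the endothelium carries little selectin, ICAM-2 is present without a stimulus, and inflammatory cytokines are known to switch on Icam1, Vcam1, Sele and, in mice, Selp through transcription factors of the NF-κB family. Itgb2 in brain tissue comes largely from microglia, the resident macrophages of the brain, so it is not a marker of blood leukocytes there.

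The promoters of 3 of these genes are shown because the comparisons ask whether genes that answer to inflammatory signals differed between the groups. RefSeq's table for GRCm38.p6 held a promoter, 250 bases before to 50 bases after the gene's start, for 4 of the 8 genes: Icam1, Sele, Selp and Itga4. Capitals mark matches to GGNNNTTCC or its reverse complement GGAANNNCC, a loose form of the motif bound by NF-κB, which was chosen with the sequences in view. All sequences run 5′ to 3′ on the plus strand, which is the strand of each gene.
Icam1, chr9:21015690-21015989: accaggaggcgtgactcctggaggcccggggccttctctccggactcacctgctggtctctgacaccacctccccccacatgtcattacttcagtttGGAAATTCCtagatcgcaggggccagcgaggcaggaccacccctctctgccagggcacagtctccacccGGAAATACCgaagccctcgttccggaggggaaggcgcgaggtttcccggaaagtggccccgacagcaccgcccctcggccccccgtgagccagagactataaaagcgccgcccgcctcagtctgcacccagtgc
Sele, chr1:164047984-164048283: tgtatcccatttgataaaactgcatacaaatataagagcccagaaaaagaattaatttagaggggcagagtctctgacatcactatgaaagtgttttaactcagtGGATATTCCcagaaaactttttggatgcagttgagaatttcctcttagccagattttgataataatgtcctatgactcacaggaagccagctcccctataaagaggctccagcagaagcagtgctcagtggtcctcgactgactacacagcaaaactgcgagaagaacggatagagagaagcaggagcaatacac
Selp, chr1:164115014-164115313: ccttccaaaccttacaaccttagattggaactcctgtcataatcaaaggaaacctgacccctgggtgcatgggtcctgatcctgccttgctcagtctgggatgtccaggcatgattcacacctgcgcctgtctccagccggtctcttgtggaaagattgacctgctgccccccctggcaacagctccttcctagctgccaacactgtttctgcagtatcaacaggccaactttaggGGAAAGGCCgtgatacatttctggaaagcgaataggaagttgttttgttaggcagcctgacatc
The window of Icam1 held 2 matches, those of Sele and Selp held 1 each, and that of Itga4 held none. Of all 32851 promoters in the table, 6070 (18.48%) held at least 1 match, so a match describes the letters only.

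The deposited unit was FPKM, the fragments on a gene divided by its length and by the size of the library, so that levels of different genes can be set side by side. The fragments (reads) behind each value were recovered from the smallest step of FPKM, and 16536449 to 25308700 reads per mouse lay behind the table. All 8 genes were detected, but at very different levels. Vcam1 was the most abundant with 2.58 ± 0.303 FPKM (mean ± SD over 24 mice), followed by Icam2 with 2.10 ± 0.868 and Itgb2 with 1.72 ± 0.218. Icam1 (0.663 ± 0.191) and Itga4 (0.629 ± 0.213) lay at similar levels, and Itgal was lower with 0.190 ± 0.0503 FPKM. The selectin genes were close to the limit of detection, with 0.0508 ± 0.0606 FPKM for Sele and 0.0311 ± 0.0343 FPKM for Selp.

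**Figure D1:**
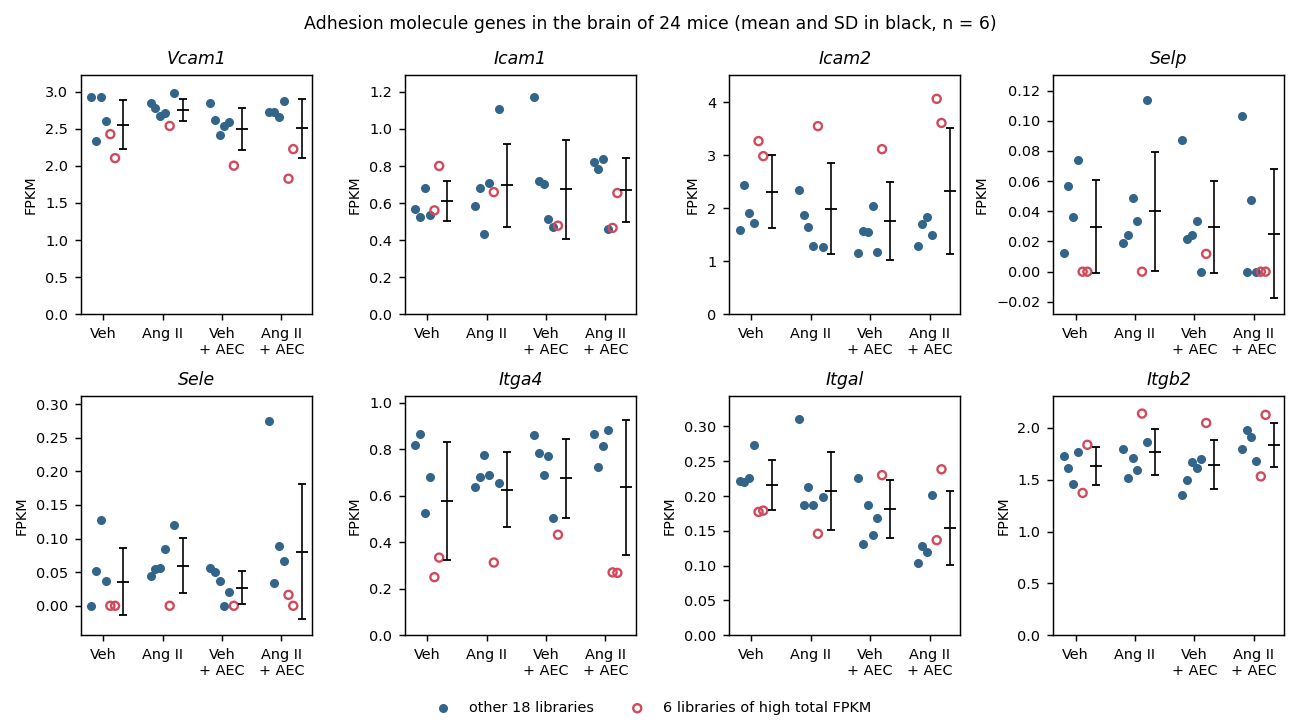
FPKM of each adhesion molecule gene in the brain of every mouse, 1 panel per gene, for mice given vehicle (Veh), angiotensin II (Ang II), vehicle + amnion epithelial cells (Veh + AEC) or angiotensin II + amnion epithelial cells (Ang II + AEC). Points are mice, the black mark and bar beside each group are the mean and SD (n = 6, the bar may extend below 0), and open red circles are the 6 libraries of high total FPKM. The 4 groups overlap in every panel, while the open circles stand apart from the filled ones for Icam2 and Itga4.

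The libraries were not all alike. In 6 of them (replicates 5 and 6 of the vehicle group and of angiotensin II + amnion epithelial cells, replicate 5 of angiotensin II and replicate 6 of vehicle + amnion epithelial cells) the FPKM values summed to 338334.5 to 348596.7. The sums of the other 18 were 277115.9 to 298300.6. Mitochondrial genes took 6.17% to 6.84% of the reads in these 6 libraries and 4.79% to 5.75% in the others, and the first principal component of log2 FPKM held 57.6% of the variance. Neuronal Snap25 (244.6 to 310.2 FPKM), the myelin gene Mbp (412.8 to 724.6) and the choroid plexus gene Ttr (348.1 to 1112) were high in every mouse, as in whole brain tissue. Because every group had 1 or 2 of these 6 libraries, each comparison of the adhesion genes below was also made within the other 18. For the other gene lists and the cell markers described below, group comparisons are given for all libraries together only.

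Expression of Icam2 followed the set of libraries more than the treatment. In the 6 libraries it ranged from 2.99 to 4.07 FPKM with a median of 3.41, and in the other 18 from 1.15 to 2.43 FPKM with a median of 1.61, a ratio of medians of 2.12 without overlap. Itga4 showed the opposite, with 0.250 to 0.432 FPKM (median 0.292) in the 6 libraries and 0.506 to 0.883 FPKM (median 0.746) in the others, a ratio of 0.391. These 2 of the 8 genes had ranges that did not overlap between the sets, and so did 27.5% of all 27286 genes tested. Vcam1 overlapped but was lower in the 6 libraries, at 1.83 to 2.54 against 2.34 to 2.98 FPKM.

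The selectin genes were almost absent from the same libraries. Sele had 1 read in the 6 libraries together and 67 reads in the other 18, a rate per sequenced read of 0.0427 times that of the 18 (95% exact interval 0.00106 to 0.246). Selp had 1 read against 62, or 0.0461 times the rate (0.00115 to 0.267). Such intervals cover counting error only. Icam1, Itgal and Itgb2 lay close together in the sets, with differences between the 6 and the 18 libraries of -0.12, -0.01 and 0.11 on the log2(FPKM + 0.1) scale, after allowing for group.

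The difference between the sets went with the length of the gene in the deposited table. Among protein-coding genes with a mean of at least 0.1 FPKM, the median log2 difference between the 6 and the 18 libraries was 0.43 for the 2468 genes of up to 2000 bases. It was 0.13 for 4849 genes of 2000 to 4000 bases, -0.21 for 5594 genes of 4000 to 8000 bases and -0.49 for 2540 longer genes. Icam2 is the shortest of the adhesion genes with 1904 bases and differed by 1.002, and Itga4 is the longest with 13978 bases and differed by -1.03. Sele, with 2912 bases and a difference of -0.67, did not follow this order. The part of gene length in these differences was not tested.

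**Figure D2:**
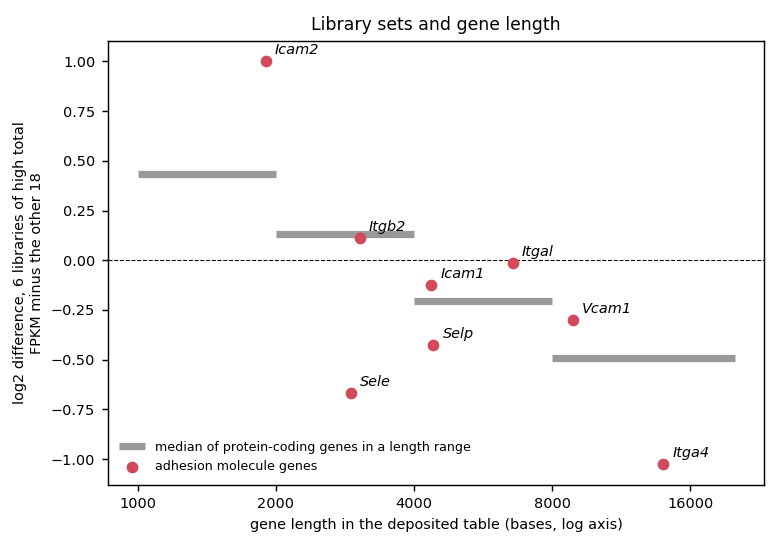
Log2 difference between the 6 libraries of high total FPKM and the other 18, after allowing for group, against gene length in bases on a log axis. Red points are the 8 adhesion molecule genes and grey bars are the medians of protein-coding genes up to 2000, 4000 and 8000 bases and beyond, which fall from 0.43 to -0.49, while Icam2 lies at 1.002 and Itga4 at -1.03.

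The first comparison asked whether angiotensin II alone altered the adhesion genes of the brain. No difference was detected. None of the 8 genes had an unadjusted p under 0.05 in limma, against 604 of all 27286 genes tested (2.21%), and the number of genes with an adjusted p under 0.05 was 0 (0%) over the whole table. The lowest adjusted p of any gene was 0.994. The median log2 difference of the 8 genes was 0.11, with 6 values above 0, and that of all genes was 0.02. This fit held no term for the library set, so its spread includes the differences between the sets. For the 2 genes that followed the set most, the intervals were narrower within the 18 libraries, at -0.59 to 0.21 for Icam2 and -0.36 to 0.28 for Itga4. Both still included 0.

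Vcam1 encodes the endothelial ligand of the α4 integrins and lies on the minus strand at chr3:116109949-116129688 of GRCm38. In mice given vehicle it ranged from 2.10 to 2.93 FPKM with a median of 2.51, and in mice infused with angiotensin II from 2.54 to 2.98 FPKM with a median of 2.74. All 6 mice of the angiotensin II group exceeded the vehicle median, but only 1 exceeded the highest vehicle mouse, so the groups overlapped. The log2 difference was 0.11 (95% confidence interval from limma -0.11 to 0.33, two-sided exact permutation p = 0.195), and 0.06 within the 18 libraries (exact permutation p = 0.508). The interval reached from 0.929-fold to 1.26-fold on the scale of FPKM + 0.1.

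Icam1, the cytokine-induced ligand of the β2 integrins at chr9:21015985-21028817 on the plus strand, varied more between mice. It ranged from 0.526 to 0.800 FPKM (median 0.564) with vehicle and from 0.433 to 1.11 FPKM (median 0.672) with angiotensin II. The mice infused with angiotensin II thus included values both below and above all vehicle mice. The log2 difference of 0.13 had an interval of -0.30 to 0.56 (exact permutation p = 0.494), so that a change of up to 1.48-fold could not be told from none. Icam2, the ligand that endothelium carries without stimulation (minus strand, chr11:106377656-106388075), ranged from 1.58 to 3.27 FPKM with vehicle and from 1.27 to 3.55 FPKM with angiotensin II. Its log2 difference was -0.25 (-0.86 to 0.37, exact permutation p = 0.390) and the highest mouse of each group was one of the 6 libraries of high total FPKM.

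The selectin genes lie next to each other on the plus strand of chromosome 1, Sele at chr1:164048234-164057677 and Selp at chr1:164115264-164150026, where the start of Selp is 57587 bases past the end of Sele. E-selectin is made by endothelium after cytokine exposure, and P-selectin is stored in granules of endothelium and platelets. Sele was found in 3 of 6 vehicle mice (median 1 read, at most 7) and in 5 of 6 mice infused with angiotensin II (median 3 reads, at most 7). In FPKM the means were 0.0360 ± 0.0498 and 0.0599 ± 0.0405 (n = 6), a log2 difference of 0.26 (-0.29 to 0.82, exact permutation p = 0.310). Selp had at most 6 reads in a vehicle mouse and at most 10 in a mouse infused with angiotensin II, with medians of 2 and 2.5 reads and a log2 difference of 0.10 (-0.33 to 0.53, exact permutation p = 0.630). Mice without a read allow up to 3 reads, which equals 0.0404 to 0.0617 FPKM for Sele in 7 mice and 0.0267 to 0.0407 FPKM for Selp in 8 mice. These limits lie near the group means. The intervals of the difference reached from 0.818-fold to 1.76-fold for Sele and from 0.795-fold to 1.44-fold for Selp on the scale of FPKM + 0.1, and changes within them were not detectable at this depth.

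The integrin genes encode the leukocyte side of the contact. Itga4, the α4 subunit that binds VCAM-1 (plus strand, chr2:79255426-79333123), had 0.250 to 0.866 FPKM with vehicle and 0.313 to 0.776 FPKM with angiotensin II. Its log2 difference of 0.16 (-0.46 to 0.77, exact permutation p = 0.641) became -0.04 within the 18 libraries. Itgal, the αL subunit that pairs with β2 to bind ICAM-1 and ICAM-2 (plus strand, chr7:127296260-127335138), had medians of 0.220 and 0.193 FPKM and a log2 difference of -0.05 (-0.37 to 0.26, exact permutation p = 0.684). Itgb2, the shared β2 subunit (plus strand, chr10:77530252-77565708), ranged from 1.37 to 1.84 FPKM with vehicle and from 1.52 to 2.14 FPKM with angiotensin II. In the angiotensin II group 2 mice exceeded every vehicle mouse, and the log2 difference was 0.11 (-0.11 to 0.34, exact permutation p = 0.262).

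**Figure D3:**
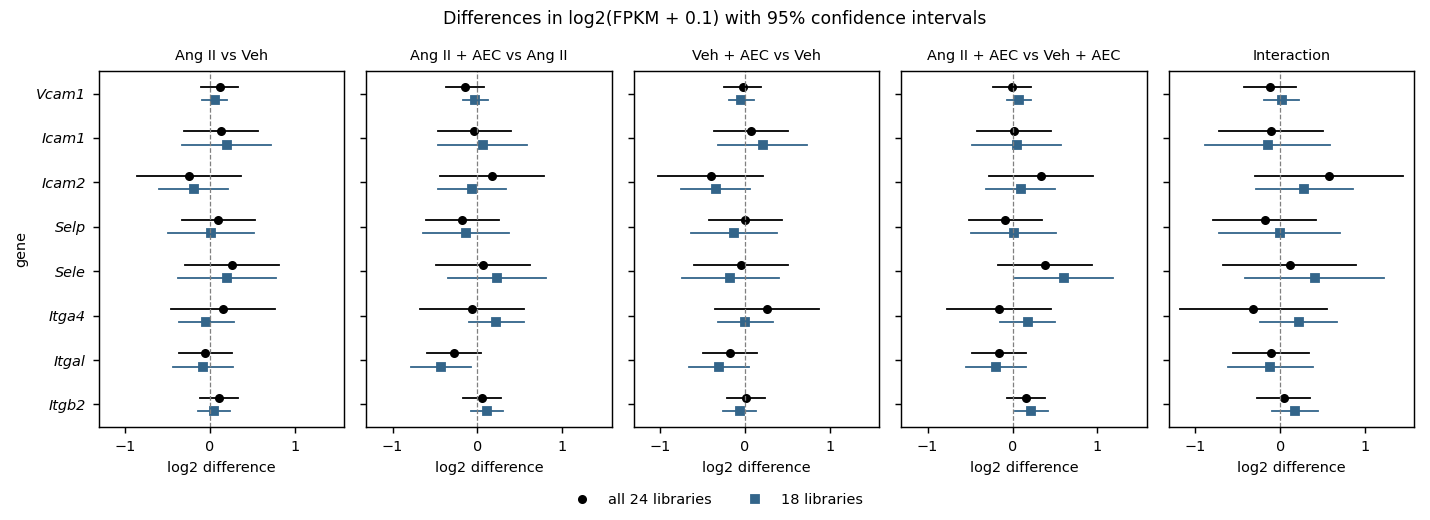
Log2 difference in FPKM + 0.1 with its 95% confidence interval for each adhesion molecule gene, 1 panel per comparison, in all 24 libraries (black circles) and in the 18 libraries outside the set of high total FPKM (blue squares). Abbreviations are Veh for vehicle, Ang II for angiotensin II and AEC for amnion epithelial cells. Every black interval includes 0, and the blue intervals exclude 0 for Itgal in angiotensin II + amnion epithelial cells compared with angiotensin II (-0.43) and for Sele (0.61) and Itgb2 (0.22) in angiotensin II + amnion epithelial cells compared with vehicle + amnion epithelial cells.

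Amnion epithelial cells were next compared with saline injection among the mice infused with angiotensin II, the comparison that asks what the cells did in hypertension. Again 0 of the 8 genes had an unadjusted limma p under 0.05, against 694 genes or 2.54% of all genes tested, and 0 of all genes had an adjusted p under 0.05. The median log2 difference of the 8 genes was -0.05 and that of all genes -0.02. The group that received angiotensin II without cells enters both this comparison and the first.

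Itgal came nearest to the threshold. It had 0.146 to 0.311 FPKM (median 0.193) in mice infused with angiotensin II and 0.104 to 0.238 FPKM (median 0.132) when amnion epithelial cells were also given. With the cells, 4 of 6 mice lay below the lowest mouse infused with angiotensin II alone, and the groups overlapped through the other 2. The log2 difference was -0.28 (-0.59 to 0.04, limma p = 0.0842, exact permutation p = 0.113), with an adjusted p of 1 in limma. The gene rested on 12 to 48 reads per mouse.

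Within the 18 libraries Itgal was lower with amnion epithelial cells. The values there were 0.104, 0.119, 0.128 and 0.201 FPKM in 4 mice given the cells and 0.186, 0.187, 0.199, 0.214 and 0.311 FPKM in 5 mice without them, which overlap in a single mouse. The log2 difference was -0.43 (-0.78 to -0.07, unadjusted limma p = 0.0210, exact permutation p = 0.0397), while the adjusted p was 0.998. It was the only one of the 8 genes past the unadjusted threshold in this fit, against 4.61% of all genes tested. When each of these 9 mice was left out in turn, the interval from limma excluded 0 for 6 of them. The difference was -0.33 (-0.68 to 0.02) without angiotensin II replicate 1 and -0.36 (-0.74 to 0.03) without replicate 1 of angiotensin II + amnion epithelial cells. Without replicate 3 of the latter group it was -0.39, with an interval that just included 0. In all 24 libraries, the difference was -0.34 (-0.67 to -0.01) without angiotensin II replicate 5 and -0.36 (-0.68 to -0.05) without replicate 6 of angiotensin II + amnion epithelial cells, and both mice are among the 6 libraries of high total FPKM.

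The genes that pair with Itgal did not show the same. Itgb2 had a log2 difference of 0.05 (-0.17 to 0.28), Icam1 of -0.04 (-0.47 to 0.40) and Icam2 of 0.17 (-0.44 to 0.79), with exact permutation p-values of 0.580, 0.855 and 0.632. Within the 18 libraries the differences were 0.11 (-0.08 to 0.30), 0.06 (-0.46 to 0.59) and -0.06 (-0.46 to 0.34) in the same order. T cells carry much of the αL subunit. Of 6 T cell marker genes 0 had an unadjusted p under 0.05 in this comparison of all 24 libraries, with a median log2 difference of -0.08. The markers were not tested within the 18. Their summed level was 2.09 to 3.12 FPKM with angiotensin II and 2.01 to 3.41 FPKM with the cells, and Cd3e, which defines T cells, had 0 to 11 reads per mouse over the 24 mice. In bulk tissue, fewer cells of a type and less RNA per cell cannot be told apart.

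The other members overlapped widely between these groups. Vcam1 ranged from 1.83 to 2.88 FPKM (median 2.69) in mice given angiotensin II and the cells, with a log2 difference from angiotensin II of -0.15 (-0.37 to 0.07, exact permutation p = 0.214). The 2 lowest of these mice, at 1.83 and 2.23 FPKM, were libraries of high total FPKM, and within the 18 libraries the difference was -0.03 (exact permutation p = 0.524). Itga4 turned its sign, from -0.06 (-0.67 to 0.55) in all libraries to 0.22 (-0.10 to 0.54) within the 18, where its values were 0.721 to 0.883 FPKM with the cells and 0.640 to 0.776 FPKM without. The exact permutation p was 0.955 in all libraries and 0.0317 within the 18, while the limma interval included 0. Over the 32 permutation tests of the 8 genes in 4 comparisons within the 18 libraries, the lowest p adjusted by Benjamini-Hochberg was 0.317. Sele had 0 to 14 reads (median 3) and Selp 0 to 8 reads (median 0) in mice given angiotensin II and the cells, with log2 differences of 0.06 and -0.18 (exact permutation p = 0.857 and 0.459).

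Amnion epithelial cells were also compared with saline injection in mice given vehicle. None of the 8 genes had an unadjusted limma p under 0.05, against 658 (2.41%) of all genes tested, and 0 genes passed the adjusted threshold. The lowest p was that of Icam2, which ranged from 1.58 to 3.27 FPKM (median 2.17) with vehicle and from 1.15 to 3.12 FPKM (median 1.56) with vehicle + amnion epithelial cells. Of the mice given the cells, 4 lay below the lowest vehicle mouse and 1 lay above the vehicle median. The log2 difference was -0.41 (-1.02 to 0.21, limma p = 0.185, exact permutation p = 0.165), and -0.35 (exact permutation p = 0.127) within the 18 libraries, where vehicle had 4 mice and vehicle + amnion epithelial cells had 5.

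Itgal was again lower in value with the cells, at 0.132 to 0.230 FPKM (median 0.178) against 0.177 to 0.274 FPKM (median 0.220). The log2 difference was -0.17 (-0.49 to 0.14, limma p = 0.270, exact permutation p = 0.162) in all libraries and -0.31 (limma p = 0.0812, exact permutation p = 0.0397) within the 18, so the 2 tests lay on different sides of the threshold. Icam1 differed by 0.07 (-0.36 to 0.51, exact permutation p = 0.740), and its highest value of all 24 mice, 1.17 FPKM from 93 reads, was in replicate 1 of vehicle + amnion epithelial cells. Vcam1 differed by -0.03 (-0.25 to 0.19), Itga4 by 0.25 (-0.36 to 0.87) and Itgb2 by 0.01 (-0.21 to 0.23), with exact permutation p-values of 0.801, 0.390 and 0.926. Within the 18 libraries Itga4 differed by 0.0045 (-0.32 to 0.33). The selectin differences were 0.0048 for Selp and -0.05 for Sele, with exact permutation p-values of 0.994 and 0.848. Within the 18 libraries 0 of the 8 genes passed in this comparison, against 4.18% of all genes, and 0 passed between angiotensin II and vehicle, against 3.86%.

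The fourth comparison set mice given angiotensin II + amnion epithelial cells against those given vehicle + amnion epithelial cells, and so asked what angiotensin II did where the cells were present. In all 24 libraries 0 of 8 genes passed the unadjusted threshold, against 725 genes or 2.66% of those tested. Itgb2 ranged from 1.53 to 2.13 FPKM (median 1.85) with angiotensin II + amnion epithelial cells and from 1.35 to 2.05 FPKM (median 1.64) with vehicle + amnion epithelial cells. Of the former mice, 5 lay above the median of the latter. The log2 difference was 0.15 (-0.07 to 0.38, limma p = 0.170, exact permutation p = 0.165).

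Within the 18 libraries, Itgb2 and Sele were higher with angiotensin II + amnion epithelial cells by the unadjusted threshold, 2 of 8 genes against 4.27% of all genes tested. Itgb2 had 1.68, 1.79, 1.91 and 1.98 FPKM against 1.35, 1.497, 1.61, 1.67 and 1.70 FPKM. Apart from 1 mouse these groups did not overlap, and the log2 difference was 0.22 (0.03 to 0.41, limma p = 0.0245, exact permutation p = 0.0317). Sele had 0.0339, 0.0672, 0.0896 and 0.274 FPKM against 0, 0.0201, 0.0368, 0.0495 and 0.0566 FPKM, a log2 difference of 0.61 (0.03 to 1.18, limma p = 0.0394, exact permutation p = 0.0556). Both had an adjusted p of 0.999. When the fit of all 24 libraries held their set as a covariate, Sele alone of the 8 genes passed, at 0.49 (0.04 to 0.93), against 4.01% of all genes.

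Both of these differences depended on which mice were included. The highest value of Sele, 0.274 FPKM, came from 14 reads in angiotensin II + amnion epithelial cells replicate 1, and without that mouse the difference within the 18 libraries was 0.31 (-0.20 to 0.81). Over the 9 mice left out in turn, Sele ranged from 0.31 to 0.80 and its interval excluded 0 in 4 cases. The other cases where it included 0 were those without replicates 3, 4 or 5 of vehicle + amnion epithelial cells (0.62, 0.51 and 0.58) and without replicate 3 of angiotensin II + amnion epithelial cells (0.63). Itgb2 ranged from 0.17 to 0.26 and its interval excluded 0 in 6 cases. It included 0 without vehicle + amnion epithelial cells replicate 1 (0.17, -0.02 to 0.36) and without replicates 2 or 3 of angiotensin II + amnion epithelial cells (0.19 and 0.20).

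The remaining genes of this comparison overlapped. Icam2 ranged from 1.29 to 4.07 FPKM with angiotensin II + amnion epithelial cells, the widest spread of any group with an SD of 1.19. The highest of these mice, at 4.07 and 3.61 FPKM, were libraries of high total FPKM. The log2 difference of Icam2 was 0.33 (-0.28 to 0.95, exact permutation p = 0.333) in all libraries and 0.09 (-0.31 to 0.50) within the 18. Icam1 differed by 0.02 and Vcam1 by -0.01 (exact permutation p = 0.905 and 0.963). For Itgal the value was -0.16 (-0.47 to 0.16, exact permutation p = 0.299), and Selp and Itga4 gave -0.08 and -0.16 (exact permutation p = 0.686 and 0.628). Within the 18 libraries the sign of Itga4 turned, to 0.18 (-0.15 to 0.50).

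The interaction asked whether the difference made by the cells was the same with and without angiotensin II. None of the 8 genes passed the unadjusted threshold, against 692 genes (2.54%) of those tested and, within the 18 libraries, 0 of 8 against 4.2%. The largest value was that of Icam2, 0.58 (-0.29 to 1.45), which was 0.29 within the 18 libraries. For Itgal, the difference made by the cells was -0.28 in mice infused with angiotensin II and -0.17 in mice given vehicle, and the interaction was -0.10 (-0.55 to 0.35). For Itga4 the interaction was -0.32 (-1.18 to 0.55) in all libraries and 0.22 within the 18.

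When the 4 groups were ordered by mean FPKM, no 2 neighbouring groups differed by more than the larger of their SDs for any of the 8 genes. Vcam1 ran from 2.75 ± 0.154 FPKM with angiotensin II through 2.55 ± 0.329 with vehicle to 2.51 ± 0.398 with angiotensin II + amnion epithelial cells and 2.50 ± 0.284 with vehicle + amnion epithelial cells. Itgal ran from 0.216 ± 0.0356 FPKM with vehicle through 0.207 ± 0.0557 with angiotensin II and 0.181 ± 0.0410 with vehicle + amnion epithelial cells to 0.155 ± 0.0530 with angiotensin II + amnion epithelial cells. In both, the 2 neighbours in each step overlapped. This order looks at single steps only and does not compare the first group with the last. For Itgal these end groups, at 0.216 and 0.155 FPKM, lay further apart than either of their SDs, and their ranges overlapped.

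The subunits with which these integrins pair were present at unequal levels. Itgb2 had 1.72 FPKM on average, and of its α partners Itgam, the subunit of Mac-1 on microglia and myeloid cells, had 1.29 FPKM. Itgal had 0.190, Itgad 0.0960 and Itgax 0.0566 FPKM. The β partners of Itga4 were Itgb1, expressed by most cell types, with 16.6 FPKM and Itgb7, which is more restricted to leukocytes, with 0.669 FPKM, close to the 0.629 FPKM of Itga4 itself. Microglial P2ry12 (7.09 FPKM) and Cx3cr1 (8.46) were far above the neutrophil gene Ly6g (0.0357). Ly6g does not stand for all neutrophil genes, since 6 neutrophil markers together had 5.19 to 46.5 FPKM per mouse. The sum of 8 microglial markers was 71.8 to 81.3 FPKM per mouse.

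**Figure D4:**
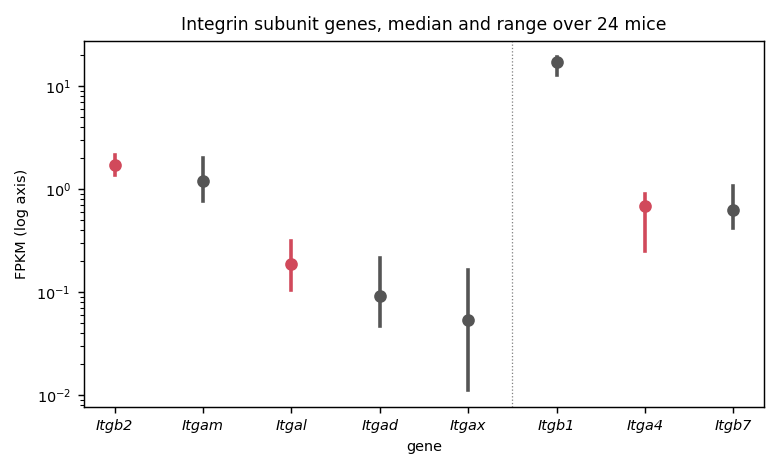
Median FPKM (points) and range over 24 mice (lines) of integrin subunit genes on a log axis, with the β2 subunit Itgb2 and its α partners on the left of the dotted line and Itga4 with its β partners on the right. The adhesion molecule genes described here are red, and Itgam lies closer to Itgb2 than Itgal does, with means of 1.29, 1.72 and 0.190 FPKM.

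Other genes of the same pathway were taken from 3 lists. Of 16 further endothelial adhesion genes, 15 were tested, and 0 had an unadjusted p under 0.05 in 3 comparisons and in the interaction. With angiotensin II + amnion epithelial cells 2 were higher than with vehicle + amnion epithelial cells, against 2.66% of all genes tested. These were Pecam1, which holds endothelial junctions together (log2 difference 0.18, 4.09 ± 0.201 against 3.61 ± 0.349 FPKM), and the sialomucin gene Podxl (0.27, 8.63 ± 1.08 against 7.12 ± 0.361 FPKM). Both had an adjusted p of 1 in limma. The median of the list was 0.10 there, against -0.01 for all genes, and -0.02 to 0.06 in the others. The most abundant gene of this list was Icam5, an ICAM of neurons, with 47.7 FPKM, while Icam4 was listed at 0 in all mice.

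Of 15 further integrin and selectin ligand genes, all were tested and 0 passed in any of the 5 comparisons, with medians of -0.03 to 0.07. Cd47 was the most abundant, and Selplg, which encodes the selectin ligand PSGL-1, had 6.15 ± 1.58 FPKM. A list of 19 genes around the cytokine signals to endothelial adhesion genes held cytokines, receptors, NF-κB subunits and an NF-κB inhibitor. Of these, 17 were tested, with medians of -0.04 to 0.02. Nfkb2, an NF-κB subunit, was lower by the unadjusted threshold in mice given angiotensin II and the cells, both compared with angiotensin II (log2 difference -0.31, SE 0.117) and compared with vehicle + amnion epithelial cells (-0.24, SE 0.117). Its exons overlap those of Psd, which had 66.5 FPKM on the other strand. Nfkbia, the inhibitor that NF-κB itself induces, was higher with vehicle + amnion epithelial cells than with vehicle (0.27, SE 0.131). None of the 3 had an adjusted limma p under 0.05, and 2.41% to 2.66% of all genes passed the unadjusted threshold in these comparisons. Ackr1, the most abundant of the list with 43.2 FPKM, shares exons on the same strand with the neuronal gene Cadm3, so its level is uncertain.

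Marker genes of other cells in brain tissue were set beside the adhesion genes. Of 10 endothelial markers, 1 (Pecam1) passed the unadjusted threshold in any comparison, in one where 2.66% of all genes passed. The summed level of the 10 was 151.1 to 202.7 FPKM with vehicle and 146.5 to 198.8 with angiotensin II. Where the cells were given it was 134.4 to 191.0 FPKM beside vehicle and 150.4 to 205.1 FPKM beside angiotensin II. In the 6 libraries of high total FPKM the endothelial sum was 179.5 to 205.1 FPKM, above the 134.4 to 171.5 FPKM of the other 18. Icam2 was higher in the same libraries, and Vcam1, Sele and Selp were not. Not every endothelial marker was higher there, since Pecam1 differed by -0.06 and Vwf by -0.22 on the log2 scale. The sums for pericytes, choroid plexus, meningeal fibroblasts and oligodendrocytes also lay above those of the 18 without overlap, while the microglial sums overlapped. The pattern was thus not particular to endothelium. The part of endothelial content in the Icam2 values was not tested.

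Some neutrophil markers were higher with angiotensin II by the unadjusted threshold, and 0 had an adjusted p under 0.05 in limma. Of 6 genes, 3 were higher with angiotensin II than with vehicle, where 2.21% of all genes tested passed. These were S100a8 (log2 difference 0.78, SE 0.346), S100a9 (0.98, SE 0.401) and Retnlg (1.14, SE 0.439). Between angiotensin II + amnion epithelial cells and vehicle + amnion epithelial cells 4 were higher, against 2.66% of all genes. These were S100a8, S100a9, Ngp and Camp, by 0.87 to 1.55. In mice infused with angiotensin II, Camp was also higher where the cells had been given (1.57, SE 0.458), and it had an interaction of 1.52 (SE 0.648). In each of these 2.54% of all genes passed. Their summed level was 5.19 to 13.8 FPKM in the vehicle group and 6.49 to 24.2 FPKM in the angiotensin II group. Where the cells were given it was 7.06 to 14.8 FPKM beside vehicle and 9.51 to 46.5 FPKM beside angiotensin II. Ly6g, which defines neutrophils, had 0 to 4 reads per mouse. The adhesion genes that neutrophils carry, Itgb2 and Itgal, did not pass in the same comparisons of all 24 libraries, while Itgb2 passed in the second of them within the 18, and the part of neutrophils in the Itgb2 values was not tested.

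By the same threshold, of 4 monocyte markers Ly6c2 was higher in the angiotensin II group than in the vehicle group (0.62, SE 0.238), and Ly6c2 and Plac8 were higher in angiotensin II + amnion epithelial cells than in vehicle + amnion epithelial cells (0.86 and 0.79). Ccr2 was lower with the cells in mice infused with angiotensin II (-0.29, SE 0.139), and Plac8 was lower with the cells in mice given vehicle (-0.58, SE 0.257) and had an interaction of 1.08. The remaining marker, Fn1, did not pass in any comparison. Together the 4 markers had 3.41 to 4.71 FPKM with vehicle and 3.95 to 5.02 FPKM with angiotensin II. Where the cells were given the sum was 3.10 to 4.75 FPKM beside vehicle and 3.68 to 5.50 FPKM beside angiotensin II. These sums overlapped between all groups. Among 5 genes of meningeal fibroblasts, Lum was lower in vehicle + amnion epithelial cells than in vehicle (-0.34, SE 0.143). Col1a1 was higher in angiotensin II + amnion epithelial cells than in vehicle + amnion epithelial cells (0.60, SE 0.244), with an interaction of 0.78. The fibroblast genes together had 14.1 to 18.5 FPKM in the 6 libraries of high total FPKM and 10.9 to 13.4 FPKM in the other 18. They were not compared within the 18, and the part of the library set in the Lum and Col1a1 differences was not tested. No adjusted limma p of any of these monocyte and fibroblast markers was under 0.05. Over all genes tested, 2.21% to 2.66% passed the unadjusted threshold in these comparisons and the interaction. The lists for microglia (8 genes), T cells (6), B cells (4), perivascular macrophages (4), platelets (5), erythroid cells (4), pericytes (6), choroid plexus (5), astrocytes (5), neurons (4) and oligodendrocytes (4) had 0 genes past the unadjusted threshold in each of the 5 comparisons.

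Genes whose levels varied most like an adhesion gene across the 24 mice were found after the mean of each set of libraries was subtracted, among 15871 genes with a mean of at least 0.5 FPKM. The mice share groups and sets, so these correlations describe the samples only. Each is among the highest of 15871 candidates, and the r that unrelated genes reach in such a search was not tested. Vcam1 was most like Jag1, which encodes a Notch ligand (Pearson r = 0.85, Spearman rho = 0.84), then Nicn1 (r = 0.76) and Gm10052 (r = 0.74). Icam1 was most like Krtcap3 (0.70), Mir103-2 (0.70) and the inflammatory transcription factor gene Cebpd (0.70). For Icam2 the nearest genes were Col6a2, a collagen gene (0.76), Cd93, a gene of endothelium (0.65), and Zfp59 (0.64). Itga4 varied most like Fam117b (0.80), Cnksr2 (0.77) and Mef2c (0.77), and Itgb2 most like Hps1 (0.76), Rerg (0.75) and Gm26446 (0.75). Itgal and the selectins were left out of this search because their median was under 50 reads.

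Selp and Sele, neighbours on chromosome 1, varied together with r = 0.57 within the sets, on 0 to 14 reads per mouse. Vcam1 and Icam1, which answer to the same cytokines, had r = 0.35, and the subunits Itgal and Itgb2 had r = -0.01. Over all 24 mice without regard to the sets, Icam2 and Itga4 had r = -0.80, and within the sets -0.05.

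Exons of 4 of the 8 genes overlap genes on the opposite strand: Vcam1 with Gm43109, Icam1 with Gm47079, Selp with Gm16587 and Gm16548, and Itga4 with Cerkl. The use of strand in the counting is not given in the sources used here, so reads in those stretches cannot be told apart. The mean levels of these neighbours were 0.0232 to 0.309 FPKM. Icam2, Sele, Itgal and Itgb2 overlapped no annotated gene in GENCODE M21.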

How the data were processed

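The deposited table holds FPKM for 24 mice beside the gene lengths and GRCm38 coordinates that the authors used. Poly(A) RNA was mapped by the authors to the Ensembl mouse genome, and the authors tested it with DESeq 1.10.1 (submitters' processing notes). Aligner, counting program and strand setting are not given in the sources used here. Groups came from the sample labels, and each sample is 1 mouse.

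Because the authors' FPKM are scaled by length and depth, log2(FPKM + 0.1) was tested with limma 3.58.1 in R 4.3.3 (trend, all 4 groups in one fit, Benjamini-Hochberg over 27286 genes above 0 in at least 6 mice). Log2 differences understate the change of low genes. Exact permutation tests of 6 against 6 mice were two-sided. Reads were recovered from the smallest step of FPKM times length (100% of values whole within 0.05) and limit the precision: 16536449 to 25308700 per mouse. The most alike 2 mice of a group differed by a chi-square of 3.19 per gene, well above sampling noise, so all 24 were kept. The limma fit was also run on simulated reads with known changes between angiotensin II and vehicle. That simulation held no sets of libraries, so it does not show how the tests behave with them. Python 3.11.15, pandas 2.3.3, scipy 1.17.1 and matplotlib 3.10.9 were used.

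The adhesion genes, gene lists and tests were chosen with earlier results of these data known. Named genes were the 8 adhesion genes, listed genes with an unadjusted p under 0.05 and the most abundant gene of each list. Promoter sequences are from RefSeq. Alternatives were a pseudocount of 1 or 0.01, no expression filter, a mean of at least 1 FPKM, only the compared groups, the replicate number as a block, the library set as a covariate, the 18 libraries alone, median-ratio scaling, voom on recovered reads, array weights and leaving out each mouse. Leaving out mice within the 18 libraries was chosen after seeing the data.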

Additional observations from a re-analysis of the deposited data

Results flagged for a closer look

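In 3 of the 32 groups of 6 mice (8 genes in 4 groups), 1 mouse stood far from the others by Dixon's criterion at 95%, where chance gives about 1 in 20. Icam1 was highest in vehicle + amnion epithelial cells replicate 1 at 1.1714 FPKM (93 reads), with the next mouse at 0.7168. Sele was highest in angiotensin II + amnion epithelial cells replicate 1 at 0.2741 FPKM (14 reads), with the next mouse at 0.0896. Itga4 was lowest in angiotensin II replicate 5 at 0.3127 FPKM (73 reads), with the next mouse at 0.6395, and this mouse is the only library of high total FPKM in its group.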

How the results depend on the processing

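In all 5 comparisons 0 of the 8 genes had an unadjusted p under 0.05, and under the alternatives this count moved in 2 of them. For the cells in mice infused with angiotensin II it was 1 (Itgal) in the 18 libraries (-0.43), with voom (-0.45) and with array weights (-0.39), and 0 to 1 when each mouse was left out. In angiotensin II + amnion epithelial cells against vehicle + amnion epithelial cells it was 1 (Sele) with the library set as a covariate, 2 (Sele and Itgb2) in the 18 libraries and 1 (Itgb2, 0.21) with array weights. The array weights were 0.219 to 0.333 for the 6 libraries of high total FPKM and 1.29 to 1.77 for the other 18. The fits with array weights and within the 18 libraries are therefore not independent alternatives. The count of all genes with an adjusted p under 0.05 was 1 for vehicle + amnion epithelial cells against vehicle with only the compared groups in the fit, and 1 for the interaction with array weights. It was 0 to 1 for angiotensin II + amnion epithelial cells against vehicle + amnion epithelial cells when a mouse was left out (1 without vehicle + amnion epithelial cells replicate 1), and 0 otherwise. None of these 3 calls was tested for its cause. Of 407 values of the 8 genes under alternatives other than leaving out a mouse, 32 changed sign, 11 of them Itga4, and none of these passed the threshold. Of 576 values with a mouse left out, 49 changed sign and 2 passed the threshold, both Itgal. At a mean of at least 1 FPKM only Vcam1, Icam2 and Itgb2 were tested.

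Counts of all genes at an unadjusted p under 0.05 ranged over the alternatives from 93 to 1254 for angiotensin II against vehicle, 119 to 1282 for angiotensin II + amnion epithelial cells compared with angiotensin II, 105 to 1331 for vehicle + amnion epithelial cells against vehicle, 136 to 1303 for angiotensin II + amnion epithelial cells against vehicle + amnion epithelial cells and 118 to 1416 for the interaction.

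With the replicate number as a block, 0 of the 8 genes and 0 of all genes (adjusted p) were called in each comparison, and 950, 993, 1036, 1096 and 1416 genes had an unadjusted p under 0.05 in the order above. The labels name no shared litter or batch, and same-numbered mice correlated over 0.1 in 28 of 36 pairs (r from -0.224 to 0.797), with 7 of 24 mice most like a mouse of their own number in another group. The median r was 0.352 for the same number and 0.07 for different numbers, and the 6 libraries of high total FPKM are all replicates 5 or 6. Since not every pair was over 0.1, the numbers were not taken to pair the mice. The quasi-likelihood count test listed at the start was not run, since FPKM are not counts. Depth limits Sele and Selp most, at 0 to 14 and 0 to 10 reads per mouse.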
